A study of Mus musculus with 16 samples.

Results

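Liver tumors were compared with the liver tissue around them, called peri-tumor tissue, in 4 mice that received a decoction of traditional Chinese medicine (TCM). The comparison holds 8 of the 16 RNA-seq libraries of the series, chosen by their labels, and an animal code pairs the 1 tumor with the 1 peri-tumor library of each mouse. The mice are numbered 1 to 4 in the order of the labels, and every set of 4 values follows that order. All 16 libraries, the 8 of control mice included, come from mice labelled HrasG12V, an activated form of a Ras oncogene, so the genotype is shared by both tissues and by the controls. The labels also give 3 months, which may be an age or a length of treatment. In the protocols both Ras-transgenic and DEN-induced mice are mentioned, DEN being a chemical that causes liver tumors. The labels do not say whether these mice had DEN, which promoter drives the transgene, or what the decoction contained and at what dose. The series asks how the decoction acts against liver tumors. The comparison below asks which genes set the tumors of treated mice apart from the liver beside them.

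Ras proteins pass growth signals from receptors at the cell surface to the kinases RAF, MEK and ERK, and active ERK switches on genes for growth as well as inhibitors of its own pathway. Hepatocytes, the main cells of the liver, divide their work by place: cells around the central vein make glutamine, bile acids and detoxifying enzymes, and cells around the portal vein make urea and glucose. Liver tumors are known to lose parts of this division of labor and to express genes of fetal liver.

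Each TCM library held between 14242076 and 16194224 counts, and values are given as CPM, the counts of a gene per 1000000 counts of its library, adjusted for library composition. A principal component analysis of the 8 libraries over all tested genes put 62.6% of the variance on component 1, which parted the 4 tumors from the 4 peri-tumor libraries (plot of the first 2 components). Component 2 held 10.3% and parted tumors 1 and 4 from tumors 2 and 3. Peri-tumor 3 lay nearest to the tumors on component 1 and had the highest peri-tumor levels of several genes that are high in tumors. The fetal plasma protein gene Afp stood at 2.25, 3.58, 18.6 and 3.9 CPM in peri-tumor tissue, and the proliferation gene Mki67 at 1.32, 1.82, 8.16 and 3.2 CPM. Neither level in peri-tumor 3 reached that of any tumor, where Afp had 351, 299, 294 and 293 CPM and Mki67 19.4, 31.1, 45.1 and 25.6 CPM. Whether that library held tumor cells was not tested, and each count of genes was recomputed without it.

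**Figure D1:**
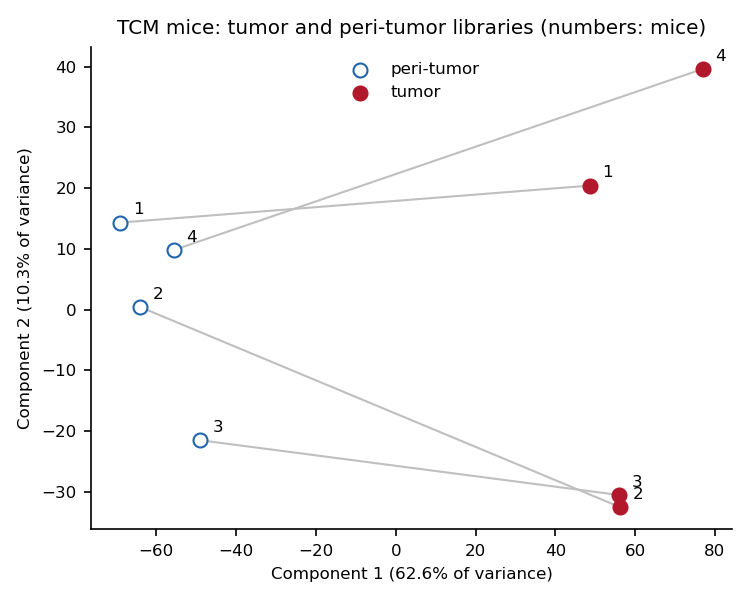
Scores of the 8 TCM libraries on principal components 1 (horizontal) and 2 (vertical) of log2 CPM over all tested genes, with filled points for tumors, open points for peri-tumor tissue and a line joining the 2 tissues of a mouse. All 4 tumors lie to the right of all 4 peri-tumor libraries, and tumors 1 and 4 lie apart from tumors 2 and 3 on component 2.

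In edgeR's quasi-likelihood test, 4897 of 14865 genes (32.9%) differed between tumor and peri-tumor tissue at an adjusted p under 0.05 (Benjamini-Hochberg). Of these, 2572 (17.3% of the tested genes) were higher and 2325 (15.6%) were lower in the tumors. The changes were uneven in size: 1542 genes (10.4%) were at least 2-fold higher and 748 (5.03%) at least 2-fold lower, and 414 (2.79%) against 64 (0.431%) changed at least 8-fold. The direction was shared by all mice for most calls, with 2456 of the 2572 higher in 4 of 4 mice and 2257 of the 2325 lower in 4 of 4. Over all 14865 tested genes, 3823 were higher and 3672 lower in 4 of 4 mice. The calls came from these same libraries, so their shared direction is a description and no separate support. In 5032 genes (33.9%) the 4 tumor values did not overlap the 4 peri-tumor values. The median log2 fold change over all tested genes was 0.0043, which is the level to read each group of genes against. In bulk tissue, fewer cells of a type and less RNA per cell cannot be told apart.

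The genes that rose with the lowest p-values were of varied function. Cd63, a tetraspanin of endosomes and exosomes, had 5.62, 3.58, 8.39 and 4.41 CPM in peri-tumor tissue and 89.6, 85.5, 101.8 and 119 CPM in tumors (log2 fold change 4.17 ± 0.23, adjusted p = 5.10e-08, edgeR). Pygb, the brain form of glycogen phosphorylase, went from 5.62, 6.21, 9.82 and 5.05 to 57.2, 69.9, 79.3 and 72.9 CPM (3.39 ± 0.20, adjusted p = 5.10e-08). Neurl1a, an E3 ubiquitin ligase of the Notch pathway, went from 0.661, 0.877, 0.68 and 1.41 to 26.3, 28, 22 and 26.3 CPM (4.80 ± 0.30, adjusted p = 8.06e-08). These genes were named among those whose 2 tissues did not overlap, so the absence of overlap was set by the choice. Ddr1, a collagen receptor kinase, had 1.06, 0.877, 1.66 and 1.73 CPM beside 24.5, 15.2, 18.9 and 31.3 CPM in tumors (4.07 ± 0.26, adjusted p = 8.06e-08). Tnfrsf12a, the receptor of the cytokine TWEAK, had 6.21, 5.87, 6.35 and 9.08 CPM beside 61, 52.5, 55.8 and 69.6 CPM (3.11 ± 0.20, adjusted p = 9.41e-08). The sodium channel gene Scn8a (4.08 ± 0.25, adjusted p = 8.06e-08), the actin-binding gene Tagln2 (2.63 ± 0.16, adjusted p = 8.06e-08) and the vesicle gene Rab3d (1.80 ± 0.11, adjusted p = 8.06e-08) rose as well, and Rab3d lay at 5.87 to 6.97 CPM in peri-tumor tissue and at 21.2 to 22.6 CPM in tumors.

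The downward genes with the lowest p-values included enzymes of hepatocyte metabolism. Car5a, the mitochondrial carbonic anhydrase that feeds bicarbonate to the urea cycle, fell from 80.9, 83.2, 67.2 and 84.1 CPM to 28.7, 25, 25.7 and 24.3 CPM (-1.60 ± 0.12, adjusted p = 3.21e-07). Pecr, a peroxisomal enzyme of fatty acid elongation, fell from 149, 148, 138 and 157 to 57.4, 45.4, 46.8 and 38.9 CPM (-1.65 ± 0.14, adjusted p = 6.43e-07). Chpt1, which makes phosphatidylcholine, fell from 161, 138, 161 and 136 to 51.1, 43, 36.9 and 36.9 CPM (-1.83 ± 0.16, adjusted p = 1.40e-06). The downward genes were also named among those without overlap, so the gap between their tissues is part of the choice. Ndrg2, a growth-restraining gene of differentiated tissues, had 988, 1127, 1096 and 1004 CPM in peri-tumor tissue and 371, 357, 316 and 260.0 CPM in tumors (-1.69 ± 0.16, adjusted p = 2.73e-06).

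**Figure D2:**
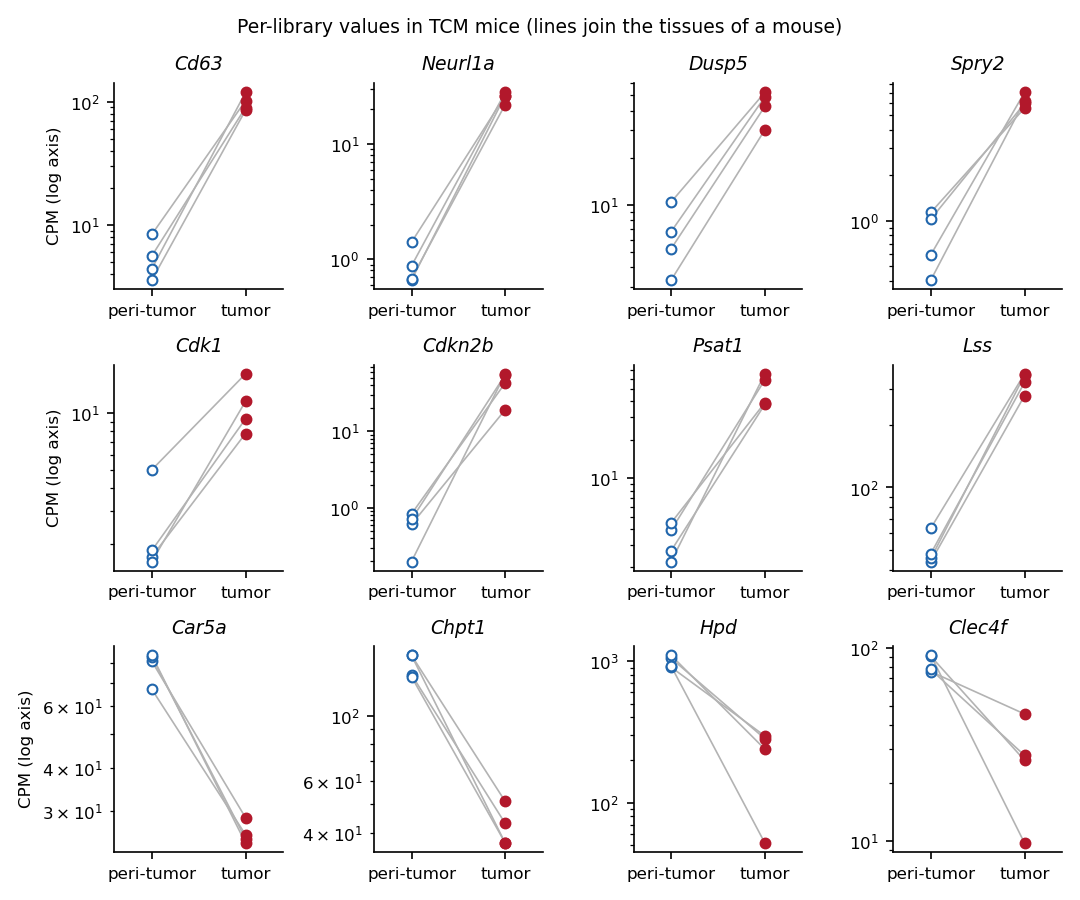
CPM on a log axis of 12 genes in the 8 TCM libraries, open points for peri-tumor tissue and filled points for tumors, with a line for each mouse. Every line runs upward for the 8 genes in the upper rows and downward for the 4 in the lowest row. Only genes without overlap of the 2 tissues were plotted.

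The Ras to ERK pathway was taken by the role of its members. Hras, the gene of the mutated oncogene, had 30.5, 28.1, 27.7 and 32.7 CPM in peri-tumor tissue and 37.5, 29.4, 36.2 and 43 CPM in tumors (0.30 ± 0.13, adjusted p = 0.0917), a difference that missed the threshold, and the labels do not say whether transgene reads were counted. Nras (0.19 ± 0.29, adjusted p = 0.663) missed it as well, and of 6 Ras genes 1 was higher and 1 lower, shares near those of all tested genes. Among the kinases and scaffolds between Ras and ERK, 1 of 9 was higher and 1 lower, with a median log2 fold change of -0.10. Both shares were below the 17.3% higher and 15.6% lower of all tested genes. ERK signaling induces feedback inhibitors, of which 7 of 10 rose and 0 fell (median 1.09), and transcriptional targets, of which 8 of 11 rose and 0 fell (median 1.04). Hras was called without tumor 2 (adjusted p 0.0247). The count of transcriptional targets called higher was 5 without peri-tumor 1 or tumor 4.

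Dusp5, a nuclear phosphatase that inactivates ERK, had 6.74, 3.31, 10.4 and 5.24 CPM in peri-tumor tissue and 48.9, 30.2, 52.3 and 42.6 CPM in tumors (2.76 ± 0.35, adjusted p = 2.92e-05). Spry2, a Sprouty inhibitor of receptor signaling to Ras, had 0.595, 0.405, 1.13 and 1.02 CPM against 7.05, 6.2, 5.55 and 5.95 CPM (2.97 ± 0.35, adjusted p = 1.70e-05). Dusp4, another nuclear ERK phosphatase, had 11.4, 11.5, 8.61 and 23.8 CPM against 30.9, 29.4, 26.3 and 43.9 CPM (1.23 ± 0.33, adjusted p = 0.00887), the highest peri-tumor library (mouse 4) staying below the lowest tumor. Spred2, an inhibitor that acts at Ras and RAF, rose as well (0.95 ± 0.22, adjusted p = 0.00312). Dusp6, the cytoplasmic ERK phosphatase that is often read as a measure of ERK activity, did not pass: it had 108.2, 66.3, 119 and 152 CPM in peri-tumor tissue and 134, 108.1, 134 and 140.2 CPM in tumors (0.21 ± 0.20, adjusted p = 0.452). Its peri-tumor libraries spanned 66.3 to 152 CPM and overlapped the tumors. Among the targets, Etv4, an ETS factor, rose from 0.397, 0.337, 0.529 and 0.64 to 2.31, 1.36, 1.37 and 3.15 CPM (2.09 ± 0.52, adjusted p = 0.00572), and Ccnd1, the cyclin that starts the cell cycle, from 19.4, 21.4, 22.4 and 39.7 to 61.5, 97.2, 122 and 168 CPM (2.12 ± 0.29, adjusted p = 5.53e-05). Phlda1, another target, had 37.5 to 68.9 CPM in peri-tumor tissue and 34.1 to 62.1 CPM in tumors (-0.12 ± 0.23, adjusted p = 0.719).

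Of 12 tested ligands and receptors at the head of the pathway, 5 were higher and 3 lower. Egfr, the main receptor of the family in hepatocytes, fell from 721, 520.1, 1034 and 935 to 423, 336, 453 and 308 CPM (-1.08 ± 0.21, adjusted p = 0.0010), with every tumor below every peri-tumor library. Its partner Erbb3 had 161 to 186 CPM in peri-tumor tissue and 129 to 211 CPM in tumors (-0.03 ± 0.27, adjusted p = 0.947). The ligand gene Hbegf had 0.595, 0.405, 0.756 and 0.895 CPM in peri-tumor tissue and 5.17, 3.23, 4.69 and 3.15 CPM in tumors (2.60 ± 0.31, adjusted p = 1.61e-05). Btc, which encodes betacellulin, had 3.57, 2.63, 4.53 and 3.33 CPM against 9.54, 8.44, 6.2 and 12.2 CPM (1.38 ± 0.26, adjusted p = 8.05e-04). Both ligands were higher in 4 of 4 mice while their receptor was lower in 4 of 4.

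Of 86 cell cycle genes, 57 rose in the tumors and 0 fell, counts that include 8 inhibitors of the cycle, 6 of which rose. All 34 of 34 mitosis genes rose at least 2-fold, with a median log2 fold change of 2.72, against 9 of 27 DNA replication genes (median 0.39) and 8 of 17 regulators of entry into the cycle (median 0.33). The plot of cell cycle genes by phase shows the mitosis genes above nearly all of the replication genes. Cdk1, the kinase that starts mitosis, had 1.72, 1.62, 4.99 and 1.85 CPM in peri-tumor tissue and 7.78, 11.5, 16.2 and 9.31 CPM in tumors (2.14 ± 0.36, adjusted p = 3.41e-04). Birc5, which encodes survivin of the chromosomal passenger complex, had 0.397, 0.54, 1.36 and 0.831 CPM against 4.19, 6.58, 12.3 and 5.06 CPM (3.17 ± 0.42, adjusted p = 4.61e-05), and Aurka, a kinase of the spindle poles, 2.31, 1.15, 3.4 and 2.17 CPM against 7.84, 7.51, 10.2 and 7.32 CPM (1.87 ± 0.29, adjusted p = 1.73e-04). In all 3 genes peri-tumor 3 was the highest of its group and tumor 3 the highest tumor. Top2a, which untangles chromosomes, had 0.859, 1.75, 5.89 and 1.6 CPM against 15.6, 29.3, 28.1 and 11.6 CPM (3.08 ± 0.49, adjusted p = 1.95e-04). Without both libraries of mouse 3, the log2 fold change was 3.74 for Top2a. Without peri-tumor 3, the log2 fold change was 3.90 for Top2a. The count of G1 to S regulators called higher was 4 without peri-tumor 1 and 5 without peri-tumor 2 or tumor 2.

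**Figure D3:**
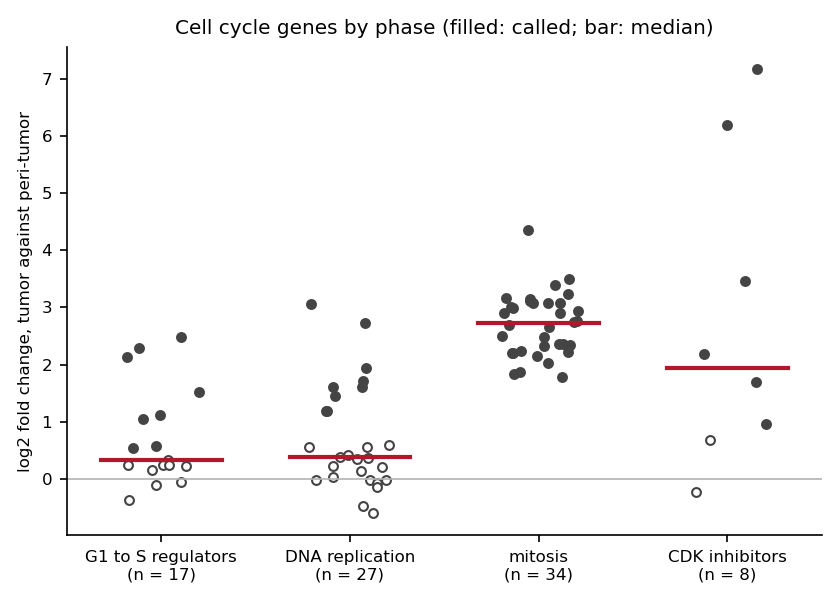
Log2 fold change, tumor against peri-tumor tissue, of each tested cell cycle gene (1 point per gene), by phase, with filled points for genes called at an adjusted p under 0.05 and a bar at the median of the phase. The mitosis genes are all filled and all above 1, while the medians of the DNA replication genes and G1 to S regulators lie near 0.39 and 0.33.

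The replication genes that rose included 3 subunits of the MCM helicase, which opens the DNA. Mcm2 had 3.9, 3.71, 3.85 and 4.41 CPM in peri-tumor tissue and 12.8, 9.0, 9.59 and 17.1 CPM in tumors (1.61 ± 0.34, adjusted p = 0.0020), Mcm6 5.16, 4.45, 6.65 and 5.05 CPM against 13.3, 19, 13.1 and 12.9 CPM (1.45 ± 0.34, adjusted p = 0.00388), and Mcm5 3.17, 2.63, 3.63 and 3.01 CPM against 8.08, 10.7, 9.74 and 9.38 CPM (1.61 ± 0.37, adjusted p = 0.00314). The other 3 tested subunits were not called, with log2 fold changes of 0.56 for Mcm3, 0.59 for Mcm4 and 0.21 for Mcm7. Cdc6, which loads the helicase, was near the limit of detection in peri-tumor tissue, at 0.331, 0.0675, 0.0756 and 0.064 CPM, and reached 1.22, 1.36, 1.37 and 0.821 CPM in tumors (3.06 ± 0.55, adjusted p = 5.60e-04). Rrm2, the subunit of ribonucleotide reductase that supplies DNA building blocks, rose from 6.08, 4.25, 7.86 and 5.44 to 22.9, 24.9, 25.1 and 18 CPM (1.95 ± 0.20, adjusted p = 4.44e-06). By contrast Pcna, the sliding clamp of the polymerases, had 17.9 to 21.3 CPM in peri-tumor tissue and 16.1 to 23.4 CPM in tumors (0.03 ± 0.13, adjusted p = 0.897), and E2f1, an activator of replication genes, 3.7 to 4.92 and 5.0 to 5.65 CPM (0.23 ± 0.23, adjusted p = 0.466). Without peri-tumor 1, the log2 fold change was 3.96 for Cdc6. 31.8% of the 50-base words of Pcna also occur in other genes, so its value is uncertain.

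The promoters of the mitosis and replication genes also differed in letters that the choice of genes did not use, and 6 are shown because they carry those letters. Sequences come from RefSeq (GRCm38.p6, 250 bases before the annotated start, 5′ to 3′ on the strand of the gene); 10509 of the tested genes had an entry. Letters were searched on both strands of a window from 250 bases before to 50 after the start, where CCAAT is the box bound by the factor NF-Y and TTTGAA is the core of the cell cycle homology region bound by the DREAM complex. CCAAT and TTTGAA occurred together in 19 of 29 mitosis promoters (65.5%) and in 5.12% of the promoters of all tested genes. CCAAT, with or without TTTGAA, was in 75.9% of mitosis, 59.1% of replication and 38.7% of all tested promoters. TTTGAA, with or without CCAAT, was in 75.9% of mitosis, 13.6% of replication and 12.3% of all tested promoters. The E2F letters TTTGGCGC or TTTCCCGC showed the opposite split, with 8 of 22 replication promoters (36.4%), 0 of 29 mitosis promoters and 3% of all tested ones. Within the replication genes these letters did not part the genes that rose, which numbered 3 of 8 with them and 4 of 14 without. Capitals mark CCAAT or TTTGAA on either strand in the first 3 sequences and the E2F letters on either strand in the last 3. A match is a description of the letters and was not tested as a binding site.
Mki67 (chr7:135716380-135716629, minus strand): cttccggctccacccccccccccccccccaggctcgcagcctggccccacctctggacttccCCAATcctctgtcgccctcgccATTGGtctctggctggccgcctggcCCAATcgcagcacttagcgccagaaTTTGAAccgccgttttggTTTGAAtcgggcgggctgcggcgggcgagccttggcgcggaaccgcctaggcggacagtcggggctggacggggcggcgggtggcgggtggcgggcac
Top2a (chr11:99024190-99024439, minus strand): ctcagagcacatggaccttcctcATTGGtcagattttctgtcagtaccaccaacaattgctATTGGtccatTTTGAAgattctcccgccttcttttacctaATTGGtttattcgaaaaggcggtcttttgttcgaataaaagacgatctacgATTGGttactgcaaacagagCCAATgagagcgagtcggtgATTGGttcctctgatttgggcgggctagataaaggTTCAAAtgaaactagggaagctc
Cdk1 (chr10:69352913-69353162, minus strand): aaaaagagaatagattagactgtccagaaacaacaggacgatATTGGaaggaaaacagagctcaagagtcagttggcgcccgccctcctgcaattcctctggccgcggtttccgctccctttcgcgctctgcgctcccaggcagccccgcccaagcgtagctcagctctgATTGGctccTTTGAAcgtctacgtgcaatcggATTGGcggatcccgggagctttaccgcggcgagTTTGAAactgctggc
Mcm6 (chr1:128359706-128359955, minus strand): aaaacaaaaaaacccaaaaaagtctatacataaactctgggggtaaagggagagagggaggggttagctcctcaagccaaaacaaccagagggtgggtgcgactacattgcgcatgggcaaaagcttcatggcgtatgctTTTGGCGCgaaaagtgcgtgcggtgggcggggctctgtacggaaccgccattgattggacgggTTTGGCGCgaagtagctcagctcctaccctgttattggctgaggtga
Mcm5 (chr8:75109259-75109508, plus strand): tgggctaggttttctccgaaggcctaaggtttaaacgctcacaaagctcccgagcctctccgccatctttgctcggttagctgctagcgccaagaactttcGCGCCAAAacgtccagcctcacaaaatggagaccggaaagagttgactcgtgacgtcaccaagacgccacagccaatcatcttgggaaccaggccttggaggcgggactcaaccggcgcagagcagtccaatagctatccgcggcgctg
Cdc6 (chr11:98907901-98908150, plus strand): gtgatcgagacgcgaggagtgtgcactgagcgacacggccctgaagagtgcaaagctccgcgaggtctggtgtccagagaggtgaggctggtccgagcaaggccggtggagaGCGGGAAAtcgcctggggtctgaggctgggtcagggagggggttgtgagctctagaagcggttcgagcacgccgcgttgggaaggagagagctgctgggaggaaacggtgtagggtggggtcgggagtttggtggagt

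Inhibitors of the cell cycle rose beside the mitosis genes, 6 of 8 called higher. Cdkn2b, which encodes p15 and blocks CDK4 and CDK6, had 0.198, 0.607, 0.831 and 0.704 CPM in peri-tumor tissue and 56.1, 19, 42.7 and 54.5 CPM in tumors (6.20 ± 0.45, adjusted p = 2.03e-07). Cdkn1a, which encodes p21, had 14.9, 7.89, 11.6 and 4.03 CPM against 62.1, 19.7, 29.6 and 62.4 CPM (2.18 ± 0.39, adjusted p = 5.62e-04). In both genes tumors 1 and 4 were the highest and tumor 2 the lowest, and no tumor overlapped peri-tumor tissue. Cdkn2a, which encodes p16 and p19ARF, had 3 counts in the 4 peri-tumor libraries together and 12.1, 3.1, 3.39 and 15.3 CPM in tumors, 167-fold as high with a counting interval of 56.8 to 812 (95%, exact binomial, counting error only). All 3 of those counts were in peri-tumor 4. Without that library the gene was at least 123-fold higher in tumors, set against the floor of 3 counts over the other 3 peri-tumor libraries. Of 31 targets of p53, 11 were higher and 1 lower (median 0.33). Tnfrsf10b, a death receptor among them, rose from 0.397, 0.54, 1.06 and 0.64 to 9.42, 4.65, 6.06 and 13.8 CPM (3.69 ± 0.38, adjusted p = 4.91e-06), whereas Mdm2, which degrades p53, had 26.3, 24.2, 26.4 and 24.5 CPM in peri-tumor tissue and 37.2, 25, 26.6 and 41.1 CPM in tumors (0.36 ± 0.18, adjusted p = 0.133), tumor 2 lying within the peri-tumor range.

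Of 30 oncofetal and tumor markers, 23 rose and 1 fell (median 3.95), among them Anxa2, a membrane-binding annexin, with 9.19, 11.8, 17.8 and 11.8 CPM in peri-tumor tissue and 144, 109.6, 152 and 197 CPM in tumors (3.58 ± 0.27, adjusted p = 2.71e-07). Spp1, the secreted protein osteopontin, rose from 24.4, 22.3, 47.8 and 27.8 to 1212, 613, 386 and 1214 CPM (4.81 ± 0.52, adjusted p = 7.38e-06), highest in tumors 1 and 4. Of 15 markers of bile duct cells, 8 rose and 0 fell (sums 1839.5 to 1981 CPM in peri-tumor tissue and 3178 to 4036 CPM in tumors, with Clu, Krt8 and Krt18, which hepatocytes express too, as the main part). Sox9, a factor of duct and progenitor cells, rose from 7.4, 9.58, 14.6 and 8.76 to 17.3, 21.3, 25.3 and 19.3 CPM (1.05 ± 0.22, adjusted p = 0.00187), while the duct keratin Krt19 was under 1 CPM in all 8 libraries. Targets of YAP, the Hippo pathway coactivator, rose in 11 of 25 cases and fell in 0 (median 0.66). Targets and regulators of Wnt signaling were called lower more than higher, with 9 of 20 lower and 3 higher (median -0.68). The share higher was below the 17.3% of all tested genes. Lgr5, a Wnt target and R-spondin receptor, fell from 6.41, 7.49, 7.41 and 3.45 to 1.88, 1.86, 1.59 and 0.137 CPM (-2.16 ± 0.48, adjusted p = 0.00257), and Tbx3, a Wnt target of liver tumors and pericentral cells, from 21, 9.85, 10.4 and 20.5 to 7.72, 1.8, 2.81 and 4.04 CPM (-1.91 ± 0.41, adjusted p = 0.00223). Rspo3, the R-spondin made around the central vein, fell from 5.22, 6.21, 4.61 and 4.16 to 2.19, 1.12, 1.01 and 0.821 CPM (-1.96 ± 0.30, adjusted p = 1.43e-04). The count of Wnt targets and regulators called higher was 1 without tumor 3 or without both libraries of mouse 3.

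In the growth hormone and insulin-like growth factor (IGF) axis, Ghr, the growth hormone receptor, fell from 485, 475, 565 and 509.8 to 202, 188, 216 and 135 CPM (-1.46 ± 0.18, adjusted p = 2.78e-05). Igf1, the growth factor that hepatocytes secrete under its control, fell from 503, 432, 529 and 481 to 158, 91.4, 75.4 and 75.1 CPM (-2.28 ± 0.28, adjusted p = 2.14e-05). Igf2, the fetal growth factor, was at or near 0 in both tissues, with 0.926, 0.0675, 0.0756 and 1.09 CPM in peri-tumor tissue and 3.46, 0.124, 0.0721 and 0 CPM in tumors (0.76 ± 1.32, adjusted p = 0.701). Of 35 genes that growth hormone pulses keep high in male liver, 26 fell and 0 rose (median -2.91), all 26 by at least 2-fold. Of these, 13 share at least 25% of their 50-base words with other genes, so that reads could be split among copies. The count of male-biased liver genes called lower was 14 without both libraries of mouse 3, 16 without tumor 4 and 17 without peri-tumor 3 or tumor 2. 76% of the 50-base words of Igf2 also occur in other genes, so its value is uncertain.

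Hnf4a, the central hepatocyte factor, had 545, 719, 670.1 and 677 CPM in peri-tumor tissue and 626, 702, 743 and 722 CPM in tumors (0.10 ± 0.12, adjusted p = 0.563). Of 36 hepatocyte transcription factors, 11 fell and 2 rose (median -0.30). Onecut2 had 64.3, 54.8, 67 and 52.7 CPM against 16.6, 8.13, 6.35 and 21.1 CPM (-2.19 ± 0.53, adjusted p = 0.00446), and Nr1i3, the drug-sensing receptor CAR, 39.1, 38.7, 30.8 and 37.2 CPM against 13, 13.4, 11.3 and 6.43 CPM (-1.72 ± 0.32, adjusted p = 6.82e-04). The albumin gene Alb had 74292, 82048, 117698 and 85900.3 CPM in peri-tumor tissue and 83766, 112827, 137563 and 101672 CPM in tumors (0.28 ± 0.24, adjusted p = 0.401), and the values of the 2 tissues overlapped. The transthyretin gene Ttr stood at 5337 to 6843 CPM and 3792 to 6155 CPM (-0.31 ± 0.18, adjusted p = 0.197). The count of hepatocyte transcription factors called lower was 6 without tumor 2 and 7 without peri-tumor 1 or 2 or tumor 3.

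Of 35 genes of pericentral hepatocytes, 27 were lower and 1 higher (median -1.76), against 17 of 31 lower and 4 higher periportal genes (median -0.59). In both lists the share higher was below the 17.3% of all tested genes. Cyp2e1, which oxidizes ethanol in pericentral cells, had 3746, 4161, 3466 and 3202 CPM in peri-tumor tissue and 811, 864, 591 and 159 CPM in tumors (-2.59 ± 0.50, adjusted p = 9.76e-04). Glul, the glutamine synthetase of the innermost pericentral cells, had 752, 798, 548 and 673 CPM against 201, 148, 204 and 62.3 CPM (-2.17 ± 0.34, adjusted p = 1.82e-04). Hal, a periportal enzyme of histidine breakdown, had 637, 731, 732 and 614 CPM against 290.5, 309, 252 and 162 CPM (-1.42 ± 0.19, adjusted p = 4.15e-05). In all 3 genes tumor 4 was the lowest library. The count of periportal hepatocyte genes called higher was 2 without peri-tumor 1.

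Of 67 genes of the urea cycle and amino acid breakdown, 51 fell and 1 rose (median -0.87). Cps1, the entry enzyme of the urea cycle, had 2053, 2439, 3176 and 2428 CPM in peri-tumor tissue and 881, 1259, 1271 and 731 CPM in tumors (-1.29 ± 0.22, adjusted p = 4.09e-04). Otc, the next enzyme, had 413, 380.0, 452 and 362 CPM against 150.2, 226, 202 and 66.5 CPM (-1.32 ± 0.27, adjusted p = 0.00148), and Arg1, the last, 963, 1360.4, 1292 and 1325 CPM against 623, 897, 762 and 712 CPM (-0.72 ± 0.17, adjusted p = 0.00427). Hpd, the dioxygenase of tyrosine breakdown, had 1046, 1096, 904 and 919 CPM against 283, 239, 296 and 51.9 CPM (-2.19 ± 0.41, adjusted p = 7.55e-04), and Tat, the aminotransferase before it, 867, 1486, 1723 and 1468 CPM against 424, 662, 477 and 262 CPM (-1.60 ± 0.37, adjusted p = 0.00323). The gene that rose was Glud1, glutamate dehydrogenase, which releases ammonia from glutamate, from 904, 948, 1351 and 1012 to 2006, 2274, 2491 and 2523 CPM (1.14 ± 0.14, adjusted p = 2.01e-05), while Gls2, the liver glutaminase that makes that glutamate, fell (-0.95 ± 0.16, adjusted p = 3.79e-04).

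Bile acid genes fell in 25 of 38 cases and rose in 2 (median -0.89). Cyp8b1, which makes cholic acid, fell from 191, 154, 71.2 and 61.4 to 36.7, 20.4, 13.2 and 8.14 CPM (-2.60 ± 0.44, adjusted p = 3.26e-04), and Cyp27a1, of the alternative route, from 316, 274, 257 and 286 to 112, 87, 84.5 and 52.7 CPM (-1.75 ± 0.20, adjusted p = 1.11e-05). Slc10a1, the uptake carrier NTCP, fell from 489, 523, 521 and 481 to 160.0, 148, 104 and 54.4 CPM (-2.11 ± 0.27, adjusted p = 3.70e-05), and the export pump gene Abcb11 fell (-0.999 ± 0.26, adjusted p = 0.00677). The 2 genes that rose were Cyp39a1, a hydroxylase of oxysterols, from 20.3, 23.6, 32.7 and 27.2 to 56, 96.2, 83 and 48 CPM (1.45 ± 0.21, adjusted p = 1.08e-04), and Abcb1a, a multidrug export pump, from 3.11, 4.66, 6.35 and 7.29 to 25.5, 44.7, 40.8 and 41 CPM (2.83 ± 0.29, adjusted p = 4.98e-06). Among detoxifying enzymes, 39 of 71 phase I genes fell and 8 rose (median -0.93), as did 32 and 7 of 52 conjugating enzymes (median -0.94). Both shares that rose were below the 17.3% of all tested genes. Cyp2c29 fell from 1838, 1364, 1929 and 1635 to 347, 147, 200.4 and 58.2 CPM (-3.17 ± 0.46, adjusted p = 1.03e-04) and Ugt2b1, a glucuronosyltransferase, from 771, 643, 985 and 693 to 195, 176, 111 and 89.4 CPM (-2.44 ± 0.29, adjusted p = 1.70e-05).

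**Figure D4:**
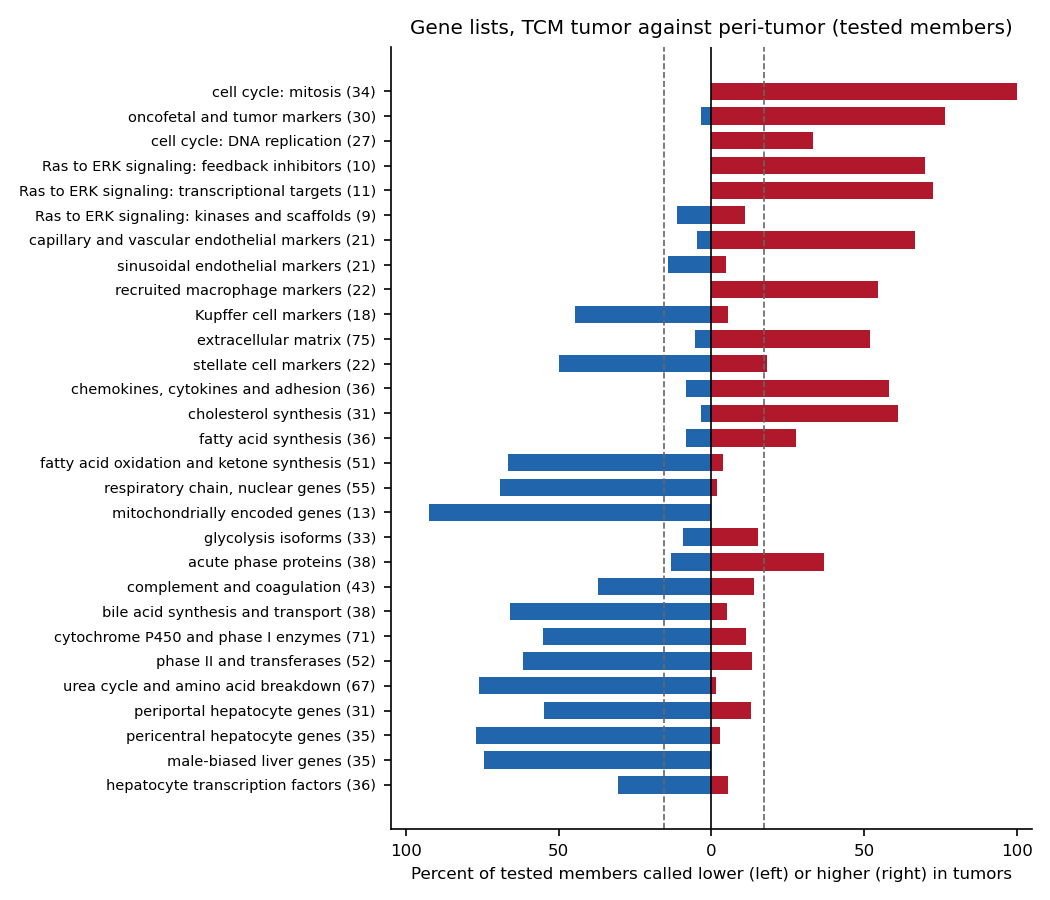
Percent of the tested members of each gene list called higher (bars to the right) and lower (bars to the left) in TCM tumors, with dashed lines at 17.3% higher and 15.6% lower over all tested genes. Mitosis genes reach 100% higher, and the mitochondrially encoded genes and several lists of hepatocyte metabolism extend furthest to the left.

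Of 31 genes of cholesterol synthesis and uptake, 19 rose and 1 fell (median 0.99). Hmgcs1, an early enzyme, had 219, 176, 265 and 166 CPM in peri-tumor tissue and 928, 1025, 1021 and 939 CPM in tumors (2.24 ± 0.40, adjusted p = 5.20e-04). Lss, which closes the sterol rings, had 43.8, 45.3, 47.8 and 63.5 CPM against 278, 350.0, 322 and 355 CPM (2.70 ± 0.24, adjusted p = 1.48e-06). Of 36 fatty acid synthesis genes, 10 rose and 3 fell (median 0.19), the share that fell being below the 15.6% of all tested genes. Scd2, a desaturase of fetal liver and brain, rose from 51.4, 28.8, 97 and 44.1 to 623, 571, 675 and 1001 CPM (3.70 ± 0.34, adjusted p = 2.09e-06), and Lpl, lipoprotein lipase, which adult hepatocytes keep low, from 12.9, 16.1, 21.9 and 13.6 to 146, 248, 233 and 74.2 CPM (3.44 ± 0.34, adjusted p = 3.09e-06). The count of fatty acid synthesis genes called lower was 5 without control peri-tumor 4 or with the mouse as a block.

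Of 51 genes of fatty acid oxidation and ketone synthesis, 34 fell and 2 rose (median -0.62). Of 55 nuclear genes of the respiratory chain, 38 fell and 1 rose, and 0 reached 2-fold (median -0.54). Ndufs1 of complex I had 127, 127, 140.3 and 126 CPM against 84, 89.7, 77.8 and 77.3 CPM (-0.66 ± 0.08, adjusted p = 2.25e-05), and Sdhb of complex II 211, 215, 199 and 201 CPM against 115, 114, 112 and 105.1 CPM (-0.89 ± 0.10, adjusted p = 1.41e-05). Transcripts of the mitochondrial genome fell in 12 of 13 genes (median -1.02), for example mt-Cytb of complex III, from 8526, 7146, 10093 and 5677 to 3738, 4864, 3488 and 2533 CPM (-1.10 ± 0.22, adjusted p = 0.00124).

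Glycolysis genes went both ways, with 5 of 33 genes higher and 3 lower (median 0.31), shares no higher than the 17.3% and 15.6% of all tested genes, and the lactate dehydrogenase gene Ldha had 521 to 672 CPM and 562 to 753 CPM (0.21 ± 0.18, adjusted p = 0.410). Pfkfb4, an enzyme that regulates the pace of glycolysis, rose from 1.39, 1.01, 1.28 and 0.831 to 6.2, 4.96, 5.05 and 9.38 CPM (2.50 ± 0.26, adjusted p = 4.92e-06). The oxidative enzymes of the pentose phosphate pathway, G6pdx (1.03 ± 0.20, adjusted p = 8.73e-04) and Pgd, from 69.5, 50.7, 61.4 and 70.5 to 131, 102.1, 86 and 185 CPM (adjusted p = 0.00117), rose, while Tkt of its non-oxidative arm had 163, 168, 155 and 196 CPM against 165, 159, 168 and 188 CPM (-0.01 ± 0.14, adjusted p = 0.983). Genes of serine synthesis and of one-carbon units went both ways, with 6 of 13 genes higher and 5 lower. Psat1, of serine synthesis, rose from 2.71, 2.23, 3.93 and 4.48 to 37.9, 65.7, 59 and 39.1 CPM (3.92 ± 0.43, adjusted p = 9.11e-06), and Shmt2, which draws the carbon from serine in mitochondria, fell from 198, 181, 172 and 191 to 118, 109.5, 101.1 and 126 CPM (-0.71 ± 0.11, adjusted p = 2.32e-04). Aldh1l1 (-0.80 ± 0.12, adjusted p = 1.26e-04) and Mthfd1 (-0.70 ± 0.10, adjusted p = 1.12e-04), which handle folate-bound carbon in the cytosol, fell too. The count of glycolysis genes called lower was 1 without peri-tumor 1 or 2 or tumor 2 or 3 or without both libraries of mouse 3.

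The integrated stress response raises amino acid synthesis, and 7 of 34 genes of it and of the unfolded protein response rose and 1 fell, the share that rose being near that of all tested genes. Asns, asparagine synthetase, rose from 1.98, 1.62, 1.13 and 2.81 to 11.8, 30.1, 13.6 and 11.3 CPM (3.13 ± 0.53, adjusted p = 3.67e-04), highest in tumor 2, and Fgf21, a stress hormone of the liver, from 1.59, 0.675, 2.57 and 1.92 to 11.8, 3.35, 10.8 and 6.71 CPM (2.28 ± 0.60, adjusted p = 0.00797). Their activator gene Atf4 had 127, 84.3, 84.6 and 101.4 CPM in peri-tumor tissue and 130.4, 121, 113 and 115 CPM in tumors (0.27 ± 0.26, adjusted p = 0.453). The amino acid carriers Slc7a7 (1.80 ± 0.16, adjusted p = 1.34e-06) and Slc1a4 (1.97 ± 0.32, adjusted p = 2.52e-04) rose. Of 35 targets of NRF2, the factor of the oxidative stress response, 8 were higher and 7 lower (median -0.10). Both shares were near the 17.3% higher and 15.6% lower of all tested genes. The count of stress response genes called higher was 4 without both libraries of mouse 3. The count of NRF2 targets called higher was 5 without tumor 4. The count of NRF2 targets called lower was 4 without both libraries of mouse 3.

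Genes of secreted plasma proteins went both ways. Of 38 acute phase genes, 14 rose and 5 fell (median 0.44). The share that rose was above the 17.3% of all tested genes, and the share that fell was below the 15.6%. Hp, haptoglobin, rose from 1484, 1125, 1518 and 1508 to 3412, 3371, 2422 and 3796 CPM (1.21 ± 0.33, adjusted p = 0.00974) and Cp, ceruloplasmin, from 996, 960.1, 1434 and 1062 to 2180.0, 2935, 2635 and 3155 CPM (1.29 ± 0.24, adjusted p = 7.51e-04), while Crp, C-reactive protein, fell from 356, 349, 443 and 317 to 163, 176, 155 and 130.2 CPM (-1.23 ± 0.16, adjusted p = 3.09e-05). Serpina3k, an abundant serpin, fell from 12275, 9914, 13814 and 11484 to 3734, 2922, 2452 and 1769 CPM (-2.13 ± 0.33, adjusted p = 1.66e-04). The lipoprotein genes Apoa1 (1.42 ± 0.29, adjusted p = 0.00135) and Apoa4 (2.96 ± 0.38, adjusted p = 3.29e-05) rose, Apoa4 from 563, 606, 1620.0 and 951 to 7569, 3623, 7060.1 and 10762 CPM. Of 43 complement and coagulation genes, 16 were lower and 6 higher (median -0.25), the share higher being below the 17.3% of all tested genes. Mbl1, a lectin that starts complement, had 185, 149, 136 and 151 CPM against 83.5, 53, 60.4 and 58.4 CPM (-1.28 ± 0.19, adjusted p = 1.30e-04). The central factor C3 had 5092 to 5808 CPM and 5682 to 7011 CPM (0.19 ± 0.16, adjusted p = 0.382).

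Genes of the matrix and of the cells that make it differed as well. Of 75 matrix genes, 39 rose and 4 fell (median 0.95), and of 21 collagens 12 rose and 0 fell. Col1a1, of fibrillar collagen, had 3.24, 5.2, 4.08 and 3.01 CPM in peri-tumor tissue and 13.9, 29.5, 30.2 and 49.3 CPM in tumors (2.98 ± 0.67, adjusted p = 0.00285), and Col4a1, of basement membranes, 28, 34.6, 34.7 and 30.5 CPM against 121, 145, 197 and 288 CPM (2.55 ± 0.33, adjusted p = 3.67e-05). In both, tumor 4 was the highest and tumor 1 the lowest of the tumors. Dcn, the small proteoglycan decorin, was among those that fell, from 91.4, 106.3, 111 and 91.4 to 61.4, 46.4, 29.4 and 33.3 CPM (-1.23 ± 0.21, adjusted p = 3.86e-04). Markers of myofibroblasts and mural cells rose in 5 of 13 cases (summed level 84 to 92.6 CPM in peri-tumor tissue and 107 to 131 CPM in tumors). The contractile gene Acta2 rose from 3.11, 2.02, 3.17 and 1.22 to 8.33, 13, 16.7 and 5.2 CPM (2.19 ± 0.61, adjusted p = 0.0115) and the mural receptor Notch3 from 3.04, 3.1, 3.17 and 3.33 to 7.9, 9.74, 10.3 and 16.8 CPM (1.82 ± 0.24, adjusted p = 4.80e-05). Of 22 markers of stellate cells, which store vitamin A in normal liver, 11 were lower and 4 higher (median -0.998). The share higher was near the 17.3% of all tested genes, and the sums were 541 to 575 CPM against 493 to 540.1 CPM in tumors. The count of myofibroblast and mural cell markers called higher was 2 without peri-tumor 3 or 4 and 3 without peri-tumor 2 or tumor 4.

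Endothelial markers were taken by vessel type. Of 21 capillary and vascular markers, 14 rose and 1 fell (median 1.41), with a summed level of 217 to 253 CPM in peri-tumor tissue and 334 to 528 CPM in tumors. Cd34, absent from normal sinusoids, rose from 2.18, 2.16, 3.1 and 2.24 to 12.1, 11.4, 9.38 and 28.5 CPM (2.66 ± 0.33, adjusted p = 2.45e-05), and the junction gene Cdh5 from 26.2, 32.7, 32.9 and 31.9 to 49, 54, 59.4 and 66.2 CPM (0.89 ± 0.19, adjusted p = 0.00188). Of 21 sinusoidal markers, 3 fell and 1 rose (median -0.30), both shares below the 15.6% lower and 17.3% higher of all tested genes. The scavenger receptor Stab2 had 29, 39.9, 39.9 and 46 CPM against 37.9, 47.9, 47.6 and 24.3 CPM (0.03 ± 0.22, adjusted p = 0.944). How far the matrix and vessel genes followed the number of such cells was not tested.

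Markers of resident and of recruited macrophages were called in different directions. Of 18 markers of Kupffer cells, the resident macrophages of the liver, 8 fell and 1 rose (median -1.13), with a summed level of 886 to 1001 CPM in peri-tumor tissue and 338 to 622 CPM in tumors. Clec4f, which defines them in mice, fell from 75.5, 90.7, 77.5 and 91.7 to 45.6, 26.2, 27.8 and 9.79 CPM (-1.61 ± 0.34, adjusted p = 0.00191), lowest in tumor 4. Of 22 markers of recruited macrophages, 12 rose and 0 fell (median 1.44; sums 2419.5 to 8476 and 7646 to 11520.0 CPM, most of it from Apoe, which hepatocytes express too), among them the elastase gene Mmp12, from 0.331, 0.135, 0.302 and 0.192 to 6.26, 4.4, 1.88 and 4.52 CPM (4.12 ± 0.73, adjusted p = 4.89e-04). Chemokines, cytokines and adhesion genes rose in 21 of 36 cases and fell in 3. Ccl2, which draws monocytes, went from 0.661, 0.405, 0.529 and 0.256 to 2.13, 2.98, 2.16 and 1.03 CPM (2.15 ± 0.53, adjusted p = 0.00509), and Icam1, on which leukocytes adhere, from 10.8, 11.1, 8.09 and 11 to 38.3, 32.7, 18 and 38.7 CPM (1.64 ± 0.23, adjusted p = 7.48e-05). Tap1, the transporter that supplies peptides to MHC class I, rose from 29.8, 26.4, 27.1 and 20.4 to 60.0, 59.3, 36.6 and 48.7 CPM (0.98 ± 0.23, adjusted p = 0.00364), and interferon response genes rose in 6 and fell in 2 of 40 cases, both shares below those of all tested genes. The count of Kupffer cell markers called lower was 5 without both libraries of mouse 3.

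Lymphocyte markers varied among the tumors. Of 21 T and NK cell markers with enough counts, 1 was called, with a median log2 fold change of 1.42 and a lowest of 0.017. Their summed level ran from 12 to 16.2 CPM in peri-tumor tissue and was 26.6, 53.9, 19.2 and 13 CPM in tumors. Of 12 B and plasma cell markers, 5 rose, with sums of 36.7 to 49.6 CPM in peri-tumor tissue and 42.2 to 309 CPM in tumors. Igha, the heavy chain of immunoglobulin A, had 3.11, 3.98, 5.52 and 2.69 CPM in peri-tumor tissue and 140.0, 45.1, 11.7 and 14.9 CPM in tumors (3.80 ± 0.64, adjusted p = 3.33e-04), and the joining chain Jchain 0.793, 1.75, 3.48 and 1.28 CPM against 31.9, 16.7, 2.38 and 3.83 CPM (2.92 ± 0.68, adjusted p = 0.00355). Tumors 1 and 2 carried most of both. Cxcl9, a chemokine that interferon induces and that draws T cells, stood at 46.3, 204, 27.8 and 21.8 CPM in tumors against 9.85 to 19.6 CPM in peri-tumor tissue (2.39 ± 0.64, adjusted p = 0.00929), with tumor 2 far above the rest. Cxcl9 was not called without tumor 2 (adjusted p 0.0629). With the mouse as a block, the log2 fold change was 3.15 for Igha. Without tumor 1, the log2 fold change was 2.66 for Igha and 2.09 for Jchain. Without both libraries of mouse 3, the log2 fold change was 3.77 for Jchain. In limma-voom, the log2 fold change was 1.72 for Cxcl9. The count of T and NK cell markers called higher was 2 without control peri-tumor 3, 3 without control peri-tumor 4, with the mouse as a block, without both libraries of mouse 3 or with the block and without mouse 3, 4 without tumor 4 and 5 without tumor 3.

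Tumors 1 and 4 stood apart from tumors 2 and 3 in several of the genes that differed most among the 4 tumors. Slc7a11, the cystine carrier, had 63.4, 22.3, 0.649 and 57.3 CPM in tumors, high in 1, 2 and 4 and at the peri-tumor level in 3 (peri-tumor 0.0661, 0.202, 1.06 and 0 CPM; 6.82 ± 1.13, adjusted p = 2.78e-04). Cdh17, an intestinal cadherin, had 80.2, 5.15, 18.2 and 176 CPM (7.78 ± 1.22, adjusted p = 1.81e-04), and Ly6d, a surface protein, 356, 41, 115 and 654 CPM (6.59 ± 0.84, adjusted p = 3.22e-05). Hkdc1, a fetal hexokinase, had 18.5, 0.744, 0.361 and 24.2 CPM against 0, 0, 0.302 and 0 CPM in peri-tumor tissue (7.16 ± 1.45, adjusted p = 0.00140), so tumors 2 and 3 were under 1 CPM, and without peri-tumor 3 no count was left in the peri-tumor libraries. Gsta1, a glutathione transferase, had 59.3, 18.7, 6.56 and 68.8 CPM (3.32 ± 0.61, adjusted p = 6.85e-04), Pkm, the fetal type of pyruvate kinase, 55.5, 25.9, 26.5 and 72.7 CPM (1.52 ± 0.32, adjusted p = 0.00175), and Spp1 above showed the same order. The glypican Gpc3, a marker of liver cancer, had the reverse order, with 116, 534, 438 and 79.3 CPM in tumors and the highest values in 2 and 3 (7.22 ± 0.85, adjusted p = 1.65e-05). Slc7a11, Cdh17, Ly6d and Hkdc1 were taken from the genes of widest spread among the tumors, so their spread is a description and was not tested. Slc7a11 was not called in limma-voom (adjusted p 0.167). Cdh17 was not called in limma-voom (adjusted p 0.0651). Hkdc1 was not called in limma-voom (adjusted p 0.0735). Without both libraries of mouse 3, the log2 fold change was 8.96 for Slc7a11, 9.83 for Cdh17 and 7.91 for Ly6d. Without peri-tumor 3, the log2 fold change was 8.55 for Slc7a11, 9.51 for Cdh17, 7.64 for Ly6d and 8.04 for Gpc3. Without tumor 4, the log2 fold change was 6.77 for Cdh17, 5.83 for Ly6d and 6.43 for Hkdc1. In limma-voom, the log2 fold change was 7.97 for Gpc3. 89.7% of the 50-base words of Gsta1 and 34.4% of the 50-base words of Pkm also occur in other genes, so these values are uncertain.

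**Figure D5:**
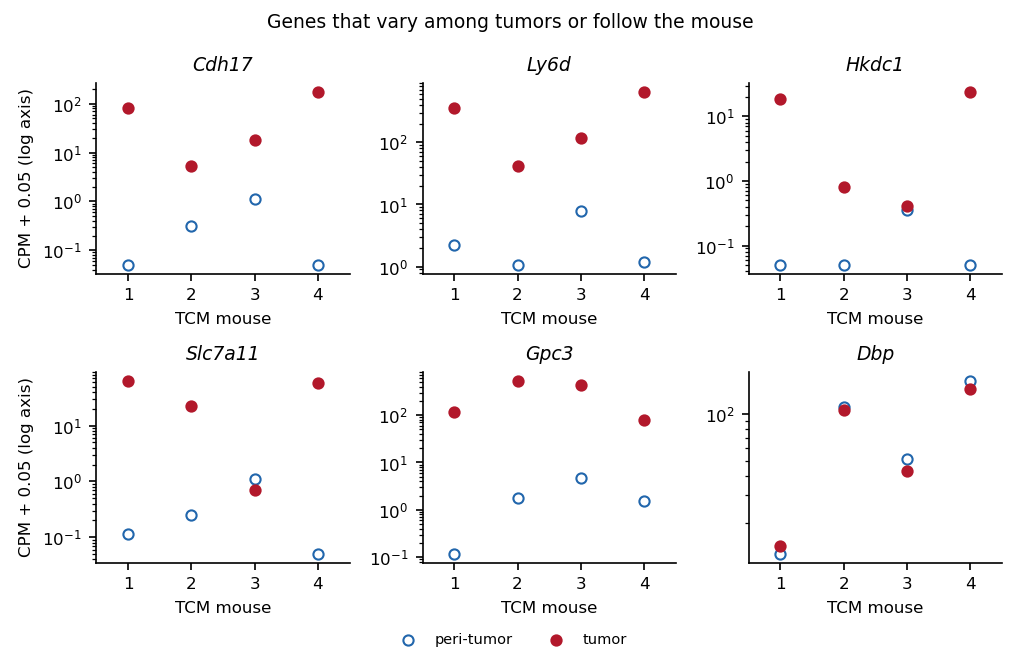
CPM on a log axis, with 0.05 CPM added, of 6 genes in the 4 tumors (filled) and 4 peri-tumor libraries (open), by mouse. Cdh17, Ly6d, Hkdc1 and Slc7a11 are highest in tumors 1 and 4, Gpc3 is highest in tumors 2 and 3, and Dbp has nearly the same level in both tissues of a mouse.

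Some genes varied widely among the peri-tumor libraries and were not called between the tissues. Dbp, an output gene of the circadian clock, had 12.6, 109.7, 51.3 and 162 CPM in peri-tumor tissue and 14.2, 104.6, 42.9 and 143 CPM in the tumors of the same mice (-0.14 ± 0.63, adjusted p = 0.890). Mouse 1 was low and mouse 4 high in both tissues, and the 2 tissues of each mouse lay close together. Lpin1, a lipid phosphatase with a daily rhythm, had 30.9, 243, 232 and 81.5 CPM and 76.4, 269.9, 224 and 130.3 CPM (0.25 ± 0.48, adjusted p = 0.727), and Rgs16, a G protein regulator with a daily rhythm, 49.8, 394, 387 and 434 CPM and 201, 448, 610.4 and 373 CPM (0.37 ± 0.48, adjusted p = 0.597), both lowest in peri-tumor tissue of mouse 1. The labels give no hour of death for the mice. Cldn2, a tight junction gene, varied in peri-tumor tissue (0.397, 78.3, 71.4 and 3.26 CPM) and much less in tumors (140.1, 74.4, 109.6 and 145 CPM; 1.61 ± 1.16, adjusted p = 0.311). These genes were chosen by their spread among the peri-tumor libraries or after their values were seen, and their spread is a description. Lpin1 was called with the block and without mouse 3 (adjusted p 0.0236). Cldn2 was called in limma-voom (adjusted p 0.0439).

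A test of the difference between the tumor effect in TCM mice and that in control mice called 165 of 14865 genes (1.11%), 60 of them (0.404%) lower in TCM and the others (0.706%) higher, and 2599 had an unadjusted p under 0.05. With the mouse as a block 107 genes were called. Leaving out 1 library moved the count by over 1.5 times for 14 of the 16 libraries, to between 58 (without TCM tumor 3) and 665 (without control peri-tumor 4), the exceptions being TCM peri-tumor 4 and TCM tumor 2. The 2 tumor effects share no library. The tumor effect in control mice was called in 6415 genes (43.2%), of which 1957 were higher and 1735 lower in both, and 51 went in opposite directions. Of the 165 genes, 57 were called with each of the 16 libraries left out in turn, and 88 in fewer than 9 of the 16. Of the 57, 29 carry names of predicted, cloned, mitochondrial or pseudogene transcripts.

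The tumor effect on metallothioneins, which bind zinc and copper, was among those that differed. Mt1 had 6.15, 16, 13.7 and 10.5 CPM in TCM peri-tumor tissue and 111, 203, 102.2 and 205 CPM in TCM tumors (3.75 ± 0.45, adjusted p = 1.78e-05), against a log2 fold change of -0.49 in control mice (difference 4.24, adjusted p = 0.00232). Control mice had 539.7, 494, 248 and 211 CPM in peri-tumor tissue and 242, 217, 137 and 464 CPM in tumors. Mt2 had 2.38, 2.97, 3.4 and 2.3 CPM against 40.5, 62.5, 25.8 and 59.1 CPM (4.09 ± 0.54, adjusted p = 4.55e-05), and -0.40 in control mice (difference 4.49, adjusted p = 0.00544), which had 77, 180.3, 107.6 and 121 CPM in peri-tumor tissue and 34.6, 60.2, 55 and 218 CPM in tumors. In both genes every control peri-tumor library lay above every TCM peri-tumor library, while the tumors of the treatments overlapped. Lcn2, the iron-binding protein lipocalin 2, had 5.62, 6.01, 13 and 5.37 CPM against 314, 229.7, 121 and 704 CPM (5.52 ± 0.62, adjusted p = 1.13e-05) and 1.08 in control mice (difference 4.43, adjusted p = 0.010), which had 245, 214, 166 and 765 CPM in peri-tumor tissue and 660.0, 728, 621 and 936 CPM in tumors. Prtn3, a protease of neutrophil granules, had 0.529, 0.472, 0.453 and 0.576 CPM against 4.44, 3.91, 3.68 and 12.7 CPM (3.57 ± 0.46, adjusted p = 3.12e-05) and -1.72 in control mice (difference 5.29, adjusted p = 3.54e-04), which had 30.3, 36.2, 16.7 and 28.4 CPM in peri-tumor tissue and 8.62, 11.5, 6.56 and 7.22 CPM in tumors. Lcn2 and Prtn3 thus showed the same order in peri-tumor tissue, with the control libraries above the TCM ones. In both genes every TCM tumor except tumor 4 also lay below every control tumor, so the overlap of the tumors rested on tumor 4. Prtn3 was itself the 1 called of 6 tested neutrophil markers. The levels were not tested between treatments within 1 tissue. In the other direction, Btc rose less than in control mice, where its log2 fold change was 3.64 and its level 0.907 to 2.58 CPM in peri-tumor tissue and 17 to 21.8 CPM in tumors (difference -2.27, adjusted p = 0.00807), and Igfbp3, an IGF-binding protein, had 21.6, 30.4, 28 and 20.9 CPM against 152, 37.5, 64.2 and 97.6 CPM (1.80 ± 0.37, adjusted p = 0.00168) beside 4.86 in control mice, at 10.3 to 17.9 and 254 to 649 CPM (difference -3.06, adjusted p = 0.0103). Without both libraries of mouse 3, the log2 fold change was 6.20 for Lcn2. Without tumor 4, the log2 fold change was 4.90 for Lcn2 and 2.97 for Prtn3.

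Several genes that hepatocytes express fell less in TCM than in control mice, but called differences went both ways. In the urea cycle list 5 were above 0 and 0 below. Among phase I enzymes 2 were above 0 and 1 below, and among fatty acid oxidation and ketone genes 0 and 2. Aox1 (difference -1.74, adjusted p = 0.00867) and Hsdl2 (-0.78, adjusted p = 0.0104) were below 0 with each library left out in turn. Of the genes below, Haao, Pemt and Vtn were chosen after their values were seen. Car5a had a log2 fold change of -2.77 in control mice, with 73.1 to 85.4 CPM in peri-tumor tissue and 9.35 to 13.5 CPM in tumors, and -1.60 in TCM mice (difference 1.17, adjusted p = 0.00373). Haao, of the route from tryptophan to NAD, had 417, 411, 345 and 422 CPM in peri-tumor tissue and 253, 183, 236 and 178 CPM in tumors (-0.91 ± 0.14, adjusted p = 1.55e-04) beside -2.09 in control mice, at 367 to 502 and 86 to 112 CPM (difference 1.19, adjusted p = 0.00807). Pemt, which makes phosphatidylcholine by methylation, had 219, 251, 231 and 245 CPM against 124, 122, 119 and 91.8 CPM (-1.05 ± 0.13, adjusted p = 2.80e-05) beside -2.40, at 218 to 343 and 53.5 to 58 CPM (difference 1.35, adjusted p = 0.00232). In these 3 genes the peri-tumor libraries of the treatments overlapped and every TCM tumor lay above every control tumor. Vtn, the plasma protein vitronectin, had 1784 to 1970.2 CPM in peri-tumor tissue and 1138 to 1323 CPM in tumors of TCM mice against 2348 to 2882 and 961 to 1020.1 CPM in control mice, so that both tissues differed between treatments without overlap (-0.59 against -1.44, difference 0.85, adjusted p = 0.0126). Rrm2 rose in TCM mice as above and had a log2 fold change of 0.16 in control mice, at 7.6 to 14 and 11.5 to 13 CPM (difference 1.79, adjusted p = 0.00499). The difference was called for Car5a, Haao, Pemt, Vtn and Rrm2 with each library left out in turn and with the mouse as a block. The same held for Mt1, Mt2, Lcn2, Prtn3, Btc and Igfbp3. Without both libraries of mouse 3 the difference was not called for Haao (adjusted p = 0.0538), Igfbp3 (adjusted p = 0.0721) or Vtn (adjusted p = 0.0721).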

How the data were processed

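RNA-seq libraries came from tumor and peri-tumor liver of 4 mice given the decoction and 4 control mice, 16 in all. Per the labels' protocols, RNA was extracted with mirVana and libraries were made with a VAHTS stranded mRNA-seq kit. The deposited table holds raw read counts per gene by the authors, and their deposited FPKM values (scaled by gene length and library size) were used only as a check: over 9176 genes FPKM followed the counts within 0.0019%. Both mm9 and mm10 are named as builds in the submitters' processing notes. Which build gave the counts, the aligner, the counter and whether counting used strand were not given in the sources used here, so reads of overlapping genes may be shared. The table lists 54838 genes, of which 27552 had no count in any library. Of all rows, 115 had no symbol and held at most 0.0171% of the counts of a library. Totals were 13947483 to 16194224 counts per library, and a gene with few counts is limited by counting error. No pair of libraries of the same group agreed within counting noise. Within a group each library comes from a separate animal, while the tumor and peri-tumor groups of a treatment come from the same 4 mice.

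Counts were tested with edgeR 4.0.16 in R 4.3.3 (quasi-likelihood test, TMM factors). Genes had to pass filterByExpr with a minimum count of 10 over the 4 groups, which left 14865. A single fit of all 16 libraries, with 12 residual degrees of freedom, gave the tumor effect in TCM mice, the tumor effect in control mice and their difference. That fit held the 4 group means and no term for the mouse, so it did not use the pairing. With the mouse as a block, 2618 genes were higher and 2426 lower in TCM tumors, and 93.1% of the called genes stayed called. P-values were adjusted over all tested genes by the Benjamini-Hochberg method, and a gene was called at an adjusted p under 0.05. A fold change is given as log2 ± its standard error, which was computed from the F statistic, followed by that adjusted p. The code was tested on simulated data. Alternatives were RLE factors, DESeq2 1.42.0, limma 3.58.1 (voom with sample weights), other filters, the 8 TCM libraries alone, each library left out in turn, a threshold of 0.01 and the mouse as a replicate block. Leaving out both libraries of mouse 3 was chosen after the data were seen. The animal codes pair the tumor with the peri-tumor library of the same mouse. Deviations of the 2 tissues from their group means correlated at 0.235, 0.043, 0.091 and 0.114 across genes in mice 1 to 4. The tumors of mice 1, 3 and 4 correlated best with their own peri-tumor library, and that of mouse 2 better with another mouse's (0.120).

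The members of the gene lists and the lists themselves were chosen with earlier results of these data known, so their counts are descriptions read beside the shares over all tested genes. Genes were named by rule: anchor genes of the lists; the 15 genes of lowest p in each direction with at least 5 CPM and no overlap between tissues; the 8 of widest spread among the tumors and the 8 among peri-tumor libraries with at least 20 CPM; the 6 of lowest p for the difference between treatments; and the called members of lists with 5 or fewer in 1 direction. Not all genes so named are printed, and a few are not reported here. Chosen after their values were seen, outside the rule, were Arg1, Aurka, Btc, Cdc6, Cdk1, Cdkn2b, Dusp4, Erbb3, Gls2, Haao, Hbegf, Hmgcs1, Igf2, Igfbp3, Lcn2, Ldha, Lpl, Lss, Mcm3, Mcm4, Mcm5, Mcm6, Mcm7, Mmp12, Mt1, Mt2, Myc, Nr1i3, Onecut2, Pemt, Slc40a1, Spp1, Spred2, Tap2, Tfr2, Tspan8 and Vtn. Promoters were matched by symbol to RefSeq (GRCm38.p6), with 10509 of 14857 tested symbols found, and the share of a gene's 50-base words found in other genes was computed from the GENCODE vM21 transcripts.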

Additional observations from a re-analysis of the deposited data

Results flagged for a closer look

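The tumor effect differed between TCM and control mice, by the edgeR test of the difference itself, in 12 of the genes named in the report. The log2 fold change in TCM mice minus that in control mice was above 0 for Car5a (1.17), Haao (1.19), Lcn2 (4.43), Mt1 (4.24), Mt2 (4.49), Pemt (1.35), Prtn3 (5.29), Rrm2 (1.79) and Vtn (0.85), and below 0 for Btc (-2.27), Igfbp3 (-3.06) and Mdm2 (-1.08). The difference for Mdm2 (adjusted p = 0.0489) was called in 3 of the 16 fits that each left out 1 library, the adjusted p reaching 0.106, and not with the mouse as a block (adjusted p = 0.0802) or without both libraries of mouse 3 (adjusted p = 0.181).

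One library stood far from the other 3 of its group in 30 of the 304 gene and tissue pairs examined. The cutoff would mark about 1 in 20 groups of independent, normally distributed values. CPM were taken without a log scale, the genes share libraries and some were chosen by their spread. The 30 are thus a description, and whether they exceed that share cannot be judged from them. Peri-tumor 1 stood apart in 3, Cdc6 (0.331 CPM), Cdh5 (26.2 CPM) and Rgs16 (49.8 CPM). Peri-tumor 2 stood apart in 3, Hp (1125 CPM), Pck2 (5.4 CPM) and Tagln2 (12.3 CPM). Peri-tumor 3 stood apart in 10, Afp (18.6 CPM), Cd34 (3.1 CPM), Cdk1 (4.99 CPM), Haao (345 CPM), Hkdc1 (0.302 CPM), Icam1 (8.09 CPM), Lcn2 (13 CPM), Ly6d (7.93 CPM), Ndufs1 (140 CPM) and Tspan8 (14.1 CPM). Peri-tumor 4 stood apart in 4, Ccnd1 (39.7 CPM), Cdkn2a (0.192 CPM), Rab3d (6.97 CPM) and Tnfrsf12a (9.08 CPM). Tumor 1 stood apart in 2, Afp (351 CPM) and Igf2 (3.46 CPM). Tumor 2 stood apart in 3, Asns (30.1 CPM), Cxcl9 (204 CPM) and Mcm6 (19 CPM). Tumor 3 stood apart in Apoa1 (27282 CPM). Tumor 4 stood apart in 4, Cd34 (28.5 CPM), Lgr5 (0.137 CPM), Pemt (91.8 CPM) and Prtn3 (12.7 CPM).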

How the results depend on the processing

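The number of genes lower in tumors was 1426 at an adjusted p under 0.01, and no other alternative moved the number higher or lower by over 1.5 times. Each alternative kept between 76.9% and 99.7% of the called genes called with the same direction, apart from the threshold of 0.01. The number of genes whose tumor effect differed between TCM and control mice moved most: 806 by DESeq2, 603 by limma-voom, 79 with no filter, 40 at an adjusted p under 0.01 and 107 with the mouse as a replicate block. It was 47 without both libraries of TCM mouse 3 and 39 with the block as well, and from 58 to 665 with each library left out in turn. The cause was not tested. Among list counts of 3 or more, the genes of fatty acid synthesis called lower numbered 5 by DESeq2 and 7 by limma-voom against 3, the sinusoidal markers lower 5 by DESeq2 against 3, and by limma-voom the glycolysis genes lower 5 against 3 and the myofibroblast markers higher 3 against 5. Counts of 0 to 2 members moved by up to 5 genes under several alternatives, most by 1. The block changed no call of a named gene in the tumor effect. Genes with few counts are limited by depth.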

Other observations

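Several gene groups outside the account above also differed between the tissues, read against 17.3% of all tested genes higher and 15.6% lower in TCM tumors. Iron handling genes numbered 3 higher and 6 lower of 22 (median log2 fold change -0.35). Hamp, the hormone hepcidin that limits iron entry into the blood, had 509, 721, 255 and 717 CPM in peri-tumor tissue and 166, 147, 116 and 19.4 CPM in tumors (-2.30 ± 0.59, adjusted p = 0.00675, edgeR). Tfr2, a sensor that controls hepcidin, fell from 291, 271, 259.9 and 287 to 178, 168, 182 and 207 CPM (-0.59 ± 0.09, adjusted p = 1.73e-04), and Slc40a1, the iron exporter ferroportin, from 122, 132, 164 and 155 to 89, 99.9, 88.5 and 51.8 CPM (-0.80 ± 0.18, adjusted p = 0.00278). The gene of the iron carrier transferrin, Trf, rose from 11651, 12419, 20391 and 13959.9 to 27868, 34008, 43184 and 39127 CPM (1.30 ± 0.23, adjusted p = 4.47e-04). Genes of intestinal-type epithelium were higher in 8 and lower in 1 of 17 cases, 32 being listed. Among them the tetraspanin Tspan8 rose from 0.992, 2.83, 14.1 and 1.47 to 306, 225, 139 and 426 CPM (5.84 ± 0.79, adjusted p = 4.97e-05) and the brush border protocadherin Cdhr2 from 0, 0.0675, 0.68 and 0.192 to 22.6, 5.03, 8.08 and 45.6 CPM (6.46 ± 0.80, adjusted p = 2.47e-05). With the block and without mouse 3, the log2 fold change was -2.93 for Hamp. Without both libraries of mouse 3, the log2 fold change was 7.49 for Tspan8 and 7.99 for Cdhr2. In limma-voom, the log2 fold change was 6.78 for Tspan8. Without peri-tumor 3, the log2 fold change was 7.27 for Tspan8 and 7.73 for Cdhr2. Without tumor 4, the log2 fold change was 5.70 for Cdhr2. 79.8% of the 50-base words of Trf also occur in other genes, so its value is uncertain.

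Of 22 genes of gluconeogenesis and glycogen, 3 rose and 4 fell, shares near those of all tested genes. Pck1, the cytosolic enzyme that commits carbon to glucose, had 1419, 2349.7, 2969 and 2205 CPM against 507, 929, 819 and 388 CPM (-1.76 ± 0.56, adjusted p = 0.0231), and its mitochondrial form Pck2 had 7.47, 5.4, 7.78 and 7.48 CPM against 17.8, 16.6, 20.8 and 20.4 CPM (1.43 ± 0.15, adjusted p = 5.09e-06), so the 2 forms moved in opposite directions. Of 28 antigen presentation genes, 11 rose and 1 fell (median 0.66), for example Tap2, the partner of Tap1, from 34.6, 34.8, 28.3 and 40.9 to 56.9, 46.3, 45 and 53.1 CPM (0.54 ± 0.12, adjusted p = 0.00264). Of 22 immediate early genes, 7 rose and 0 fell. Myc, a driver of growth, had 1.52, 1.62, 2.95 and 1.79 CPM in peri-tumor tissue and 3.83, 5.21, 2.24 and 4.86 CPM in tumors (1.04 ± 0.34, adjusted p = 0.0287), and Fos, an early target of ERK, 3.5, 1.89, 4.69 and 6.14 CPM and 8.45, 5.65, 5.63 and 6.91 CPM (0.72 ± 0.43, adjusted p = 0.222). Pck1 was not called without peri-tumor 3 or tumor 1 or 4 or without both libraries of mouse 3 (adjusted p 0.0570 to 0.0769). Myc was not called without peri-tumor 1, 2 or 4 or tumor 2 or 4 (adjusted p 0.0675 to 0.0809). Fos was called in limma-voom (adjusted p 0.0395). The count of antigen presentation genes called higher was 7 without tumor 2 or without both libraries of mouse 3.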
